A study of Ovis aries with 16 samples.

Results

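The nuclear-encoded subunits of the mitochondrial respiratory chain were followed across visceral and subcutaneous fat of adult sheep. Members were the genes of the count table whose symbol starts as those of complex I (NDUFA, NDUFB, NDUFC, NDUFS, NDUFV), complex II (SDHA to SDHD), complex III (UQCR, CYC1), complex IV (COX4 to COX8) or complex V (ATP5), followed by the letters or numbers of a subunit. The name rule itself used no measured value, though it was chosen with earlier results of these data known. It found 59 of 28524 genes. Of these, 35 belong to complex I, 4 to complex II, 1 to complex III, 2 to complex IV and 17 to complex V. NDUFA4 carries a complex I name and was placed with complex IV, where the protein is now known to sit. Other subunits of complexes III and IV were not analysed here, so statements on those complexes rest on UQCRH, COX5A and NDUFA4.

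The animals were female sheep (Ovis aries), sampled at about 21 months of age in the follicular phase, 24 hours after the last prostaglandin dose of a synchronized cycle. Their mothers had been injected daily with bisphenol A (BPA, used to make plastics and able to bind oestrogen receptors) at 0.5 mg/kg/day in corn oil, or with corn oil alone, from day 30 to day 90 of a pregnancy of about 147 days. All ewes, controls included, were kept on a maintenance diet that limits obesity. RNA of whole fat was sequenced after removal of ribosomal RNA, in 4 groups of 4 libraries: visceral control, visceral BPA, subcutaneous control and subcutaneous BPA. Visceral fat was mesenteric fat around the rumen, and subcutaneous fat came from the sternum. Libraries are named by the number in their title, and 5 numbers occur in both depots.

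The respiratory chain passes electrons from NADH (complex I) and succinate (complex II) through coenzyme Q, complex III and cytochrome c to oxygen at complex IV. Complexes I, III and IV pump protons across the inner mitochondrial membrane, and complex V, the ATP synthase, uses that gradient to make ATP. White fat cells use the chain for the ATP and precursors of fat synthesis and breakdown, and brown fat cells use it to make heat. A few core subunits are encoded by mitochondrial DNA, and the many others by nuclear genes like those described here.

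Library totals were 4.74 to 6.22 M counts in subcutaneous controls, 3.05 to 4.83 in subcutaneous BPA, 11 to 13.1 in visceral controls and 6.77 to 14.3 in visceral BPA. Every visceral library was thus deeper than every subcutaneous one. All 10 fat cell markers listed (ADIPOQ, PLIN1, LPL and others) were present in all groups. UCP1, the uncoupler that defines brown fat, did not pass the filter on low counts. In bulk tissue, fewer cells of a type and less RNA per cell cannot be told apart.

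Of the 59 members, 58 passed the filter on low counts. The exception was ATP5MC1, a gene of the ATP synthase c ring, with 2 counts in subcutaneous control 924, 1 count in subcutaneous BPA 977 and no count elsewhere. The other c ring genes, ATP5MC2 and ATP5MC3, encode the same mature protein and had 22 ± 3.66 and 22.9 ± 6.57 CPM (counts per M counts of the library; SD, n = 4) in visceral controls. Together the members took 0.296 ± 0.0378% of counts in visceral controls and 0.263 ± 0.0427% in visceral BPA libraries. The share was 0.258 ± 0.0415% in subcutaneous controls and 0.255 ± 0.0209% in subcutaneous BPA libraries (SD, n = 4 each). These group shares overlap.

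Per length of transcript, complex V genes had a higher median than those of complexes I and II, though the ranges overlapped. The complex V median was 85.2 RPKM (CPM per kilobase) in visceral controls, against 32 for complex I and 39.9 for complex II. Members there ran from 14.6 to 230 RPKM in complex V and from 7.63 to 132 in complex I. The same order of complex V above both others held in the remaining groups, with complex V medians of 71.4 to 76.1 RPKM. The highest member in every group was ATP5IF1, the inhibitor that blocks reverse action of the ATP synthase, from 158 RPKM in subcutaneous controls to 230 in visceral controls. UQCRH, the hinge protein of complex III, had 137 to 192 RPKM. The lowest member in every group was SDHD, an anchor of complex II in the membrane, at 1.98 to 3.56 RPKM. Its partners lay far above it, with SDHA, the flavin subunit that oxidises succinate, at 71.9 RPKM in visceral controls. Within complex I, NDUFS5 was highest in all groups (106 to 132 RPKM). Lengths are those of the deposited gene models, so SDHD (3086 bases) and NDUFB2 (2595 bases) are divided by long models.

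**Figure D1:**
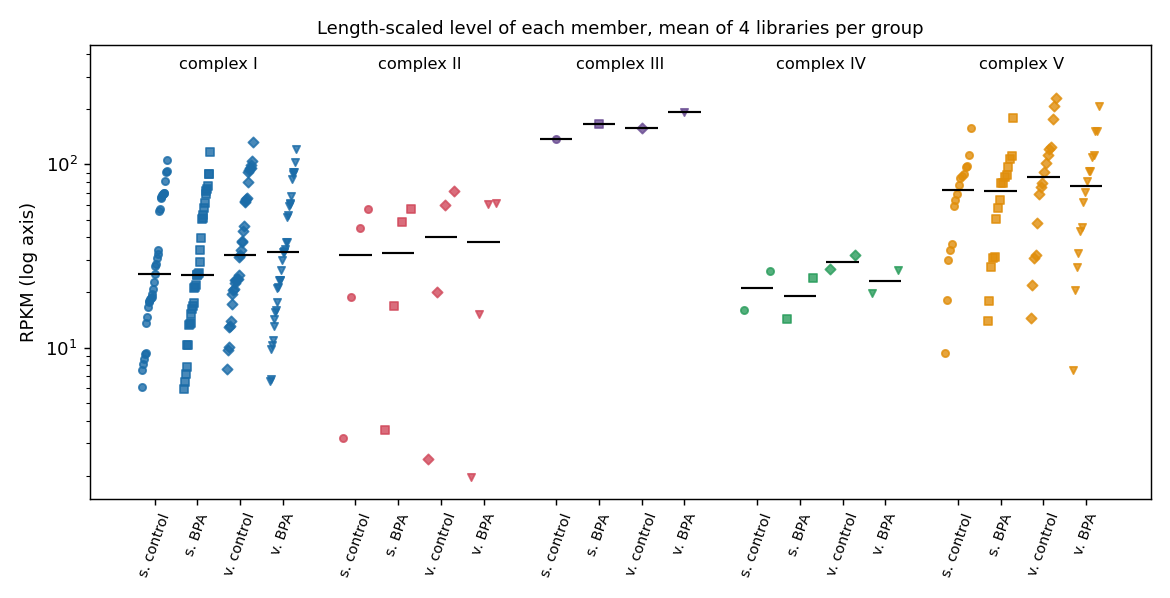
RPKM of each member that passed the filter, as the mean of 4 libraries per group (s., subcutaneous; v., visceral), on a log axis, with members sorted by level within each column and a bar at the median. The median of complex V lies above those of complexes I and II in each group, with overlapping members, and SDHD is the isolated low point of complex II.

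Much of the spread among the members was shared within a library. A level was computed per library: log2(CPM + 1) of each of the 58 members, minus that member's mean over 16 libraries, and then the median over members. In subcutaneous controls it was -0.02, -0.56, 0.16 and 0.01 for libraries 902, 924, 928 and 931. In visceral controls it was 0.24, 0.32, -0.09 and 0.34 for libraries 902, 908, 924 and 928. Number 924 was therefore the lowest control in both depots.

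In visceral BPA libraries 910, 918, 977 and 984 the level was 0.21, 0.17, -0.37 and 0.10. In subcutaneous BPA libraries 918, 922, 941 and 977 it was 0.09, -0.19, -0.40 and 0.00. Number 977 was low in visceral but not in subcutaneous fat. Library 924 held the lowest value of its group for 52 of the 58 members in subcutaneous and 47 in visceral controls, against 30.3% and 26.9% of all genes that passed the filter. Visceral BPA library 977 did so for 46 members (35.4% of all genes) and subcutaneous BPA library 941 for 40 (28% of all genes). Members of one library share its RNA and depth, so these counts describe libraries and are not separate observations.

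The summed CPM of the 10 fat cell markers moved with this level. They were 20400, 13700, 28000 and 22300 in subcutaneous controls 902, 924, 928 and 931, and 30500, 32800, 24500 and 35400 in visceral controls 902, 908, 924 and 928. They were 28900, 28300, 18800 and 29800 in visceral BPA libraries 910, 918, 977 and 984. In subcutaneous BPA libraries 918, 922, 941 and 977 they were 29100, 18600, 17200 and 27800. The library lowest in the members was also lowest in the markers in all 4 groups. Visceral BPA library 977 was also highest of its group in markers of the mesothelium, the lining of the abdominal cavity (249 CPM against 25 to 50.2), and of fibroblasts (4760 against 1080 to 3180). The part of cell makeup in the results below was not tested.

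**Figure D2:**
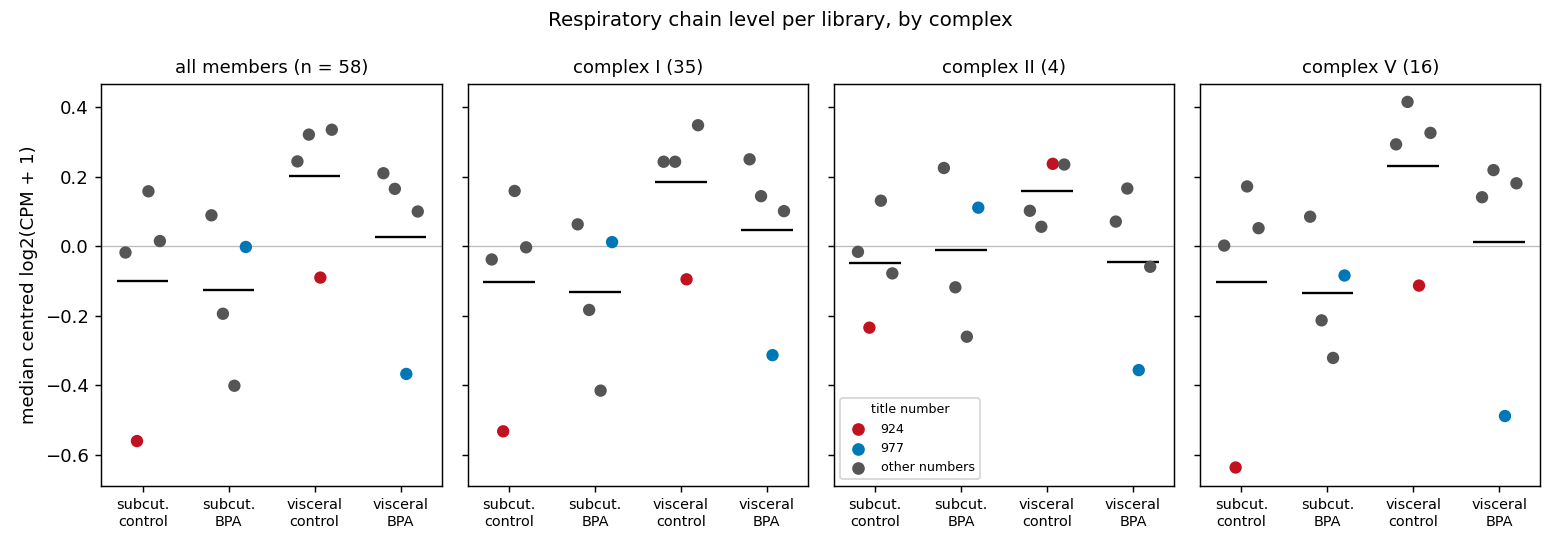
Level of the respiratory chain per library (points) by group, for all members and for complexes I, II and V, as the median centred log2(CPM + 1), with a bar at the group mean of 4 libraries. Libraries of number 924 (red) are lowest in the controls except for complex II in visceral fat, and visceral BPA library 977 (blue) is lowest of its group in each panel.

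The comparison of visceral with subcutaneous fat in controls asks how the chain differs between depots without exposure. Most members were higher in visceral fat: 53 of 58 had a fitted change above 0 (49.4% of all genes), and 3 passed the test. These 3 were ATP5PF, ATP5F1E and NDUFS1 (edgeR quasi-likelihood test over all genes, Benjamini-Hochberg adjusted p under 0.05, the rule for a call throughout). The 3 calls stand against 13.3% of all 14456 genes called in either direction and 7.17% called higher, so the share of members called was not above the background. The median log2 fold change over members was 0.30, against -0.01 over all genes. At an unadjusted p under 0.05, 18 members were higher and 0 lower, where 15.1% of all genes were higher.

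Title numbers 902, 924 and 928 occur in both control groups, and their libraries deviated together. The test above did not use this pairing. A fit with the number as a replicate block took the 10 libraries, control and BPA, whose number occurs in both depots. It called 8 members, all higher in visceral fat: the 3 above with ATP5IF1, ATP5PO, COX5A, NDUFA5 and NDUFB11. These are 13.8% of members, against 14.4% of 15250 genes called in that fit. On the same 10 libraries without the block, 0 members and 6.46% of genes were called, with ATP5PF at an adjusted p of 0.0587 (edgeR), and 10 members had an unadjusted p under 0.05. Single libraries weighed on this comparison, those of numbers 924 and 928 most. Without subcutaneous control 924 the median fell to 0.17 with 44 of 58 members higher. Without visceral control 924 it was 0.37, with 8 members called (13.8%, against 12.3% of all genes). Leaving out subcutaneous control 928 gave a median of 0.408 with 56 members higher. Leaving out visceral control 928 gave 0.225 with 52 higher. Without subcutaneous controls 902 and 924 together, the median was 0.13, with 40 members higher. In that fit 1 member was called, ATP5PF (1.72%, against 7.37% of all genes). All 10 fat cell markers were higher in visceral controls too, with a median log2 fold change of 0.52 and 2 of the 10 called. Of 6 fibroblast markers 5 were lower (median -0.72, 2 called), with sums of 1840 to 2880 CPM in visceral and 4300 to 6890 in subcutaneous controls. All 4 tested mesothelial markers were called higher, with sums of 40.2 to 84.5 CPM in visceral and 0.615 to 2.96 in subcutaneous controls.

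Of the 3 members called in controls, 2 belong to complex V. As a whole, complex V was not set apart, with a median log2 fold change of 0.26, against 0.32 for complex I. ATP5PF, a subunit of the peripheral stalk that holds the ATP synthase head in place, had 94.2, 106, 86 and 129 CPM in visceral controls and 57.3, 37.9, 65 and 52.7 in subcutaneous controls. All 4 visceral libraries lay above all 4 subcutaneous ones, and the gene was 1.96-fold higher (log2 0.97 ± 0.18 SE, adjusted p = 0.008, edgeR). ATP5PF shares 20.6% of its exon bases with GABPA, which lies on the opposite strand. The strand setting of the counting is not given in the sources used here, so reads of that stretch cannot be assigned with certainty. GABPA itself, a regulator of respiratory chain genes, had a log2 fold change of 0.11 ± 0.14 SE (adjusted p = 0.648, edgeR).

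ATP5F1E, the epsilon subunit of the rotating central stalk, had 99, 98.7, 49.7 and 94 CPM in visceral controls and 47.4, 27.9, 38.8 and 46.1 in subcutaneous controls. The groups did not overlap, though visceral control 924 lay close to the subcutaneous range. The gene was 2.14-fold higher in visceral fat (log2 1.10 ± 0.24 SE, adjusted p = 0.0139, edgeR). ATP5PF and ATP5F1E were called without each of the 8 libraries in turn, but not on the 10 libraries without the block (ATP5F1E adjusted p = 0.0657, edgeR).

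All 4 peripheral stalk members were higher, 3 of them at an unadjusted p under 0.05, and ATP5PD had a log2 fold change of 0.64 ± 0.23 SE (adjusted p = 0.0861, edgeR). The inhibitor ATP5IF1 was 1.46-fold higher at an adjusted p of 0.0669. The F1 head subunits ATP5F1A and ATP5F1B differed less: ATP5F1B had 202 ± 23.3 CPM in visceral and 176 ± 40.1 in subcutaneous controls (SD, n = 4), with overlapping libraries. Unequal differences within complex V were thus seen in these libraries, but no difference between members was tested.

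In complex I, 32 of 35 members were higher in visceral controls, and the 10 members of the N module, the tip that takes electrons from NADH, all were. NDUFS1, its large iron-sulphur subunit, had 66.9, 63.2, 49.5 and 68.4 CPM in visceral controls and 49.8, 26.4, 41.3 and 37.3 in subcutaneous controls. The groups overlap by 1 pair of libraries, visceral 924 and subcutaneous 902. The gene was 1.61-fold higher (log2 0.69 ± 0.19 SE, adjusted p = 0.0368, edgeR). That call was lost without visceral control 902, 908 or 928 and without subcutaneous control 924, 928 or 931. Adjusted p-values were then 0.0668 to 0.0988 (edgeR). The call was also lost with every library thinned to the lowest total, on the 10 libraries without the block, and without subcutaneous controls 902 and 924 together. In these fits the adjusted p ran from 0.0662 to 0.196 (edgeR). Thinning left 2 members called (3.45%, against 8.19% of all genes), ATP5F1E and ATP5PF.

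All 6 members of the Q module, which hands electrons to coenzyme Q, were higher, and NDUFA5 among them was 1.74-fold higher (adjusted p = 0.0747, edgeR). In the membrane arm, which pumps protons, 16 of 19 were higher. NDUFB11, a membrane arm subunit, had 22.1 to 30.8 CPM in visceral and 11.6 to 21.5 in subcutaneous controls, groups that do not overlap (log2 0.60 ± 0.20 SE, adjusted p = 0.0746, edgeR). Over all members 5 were without overlap, all higher in visceral fat, against 10.2% of all genes. They were ATP5F1E, ATP5PF, NDUFA3, NDUFB11 and SDHB.

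The subunits of complex II did not share a direction. SDHB, the iron-sulphur subunit, had 75.9, 87.5, 80 and 84.2 CPM in visceral controls and 55.4, 50.9, 67.2 and 73.6 in subcutaneous ones, without overlap (log2 0.41 ± 0.14 SE, adjusted p = 0.0761, edgeR). SDHA had a log2 fold change of 0.35 (adjusted p = 0.1475, edgeR). The membrane anchors differed from these catalytic subunits in sign or size: SDHC had 0.10, and SDHD had -0.37 ± 0.23 SE (adjusted p = 0.309, edgeR). The signs of both anchors turned at equal depth, with SDHC at -0.01 and SDHD at 0.12 after every library was thinned to the lowest total, and SDHC also turned to -0.04 without both libraries of number 924.

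COX5A, a nuclear subunit of cytochrome c oxidase, had 14.4 to 25.9 CPM in visceral and 6.9 to 14.6 in subcutaneous controls (log2 0.75 ± 0.26 SE, adjusted p = 0.0785, edgeR). UQCRH had 82.4 ± 9.47 and 71.8 ± 7.07 CPM (SD, n = 4; adjusted p = 0.317, edgeR).

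**Figure D3:**
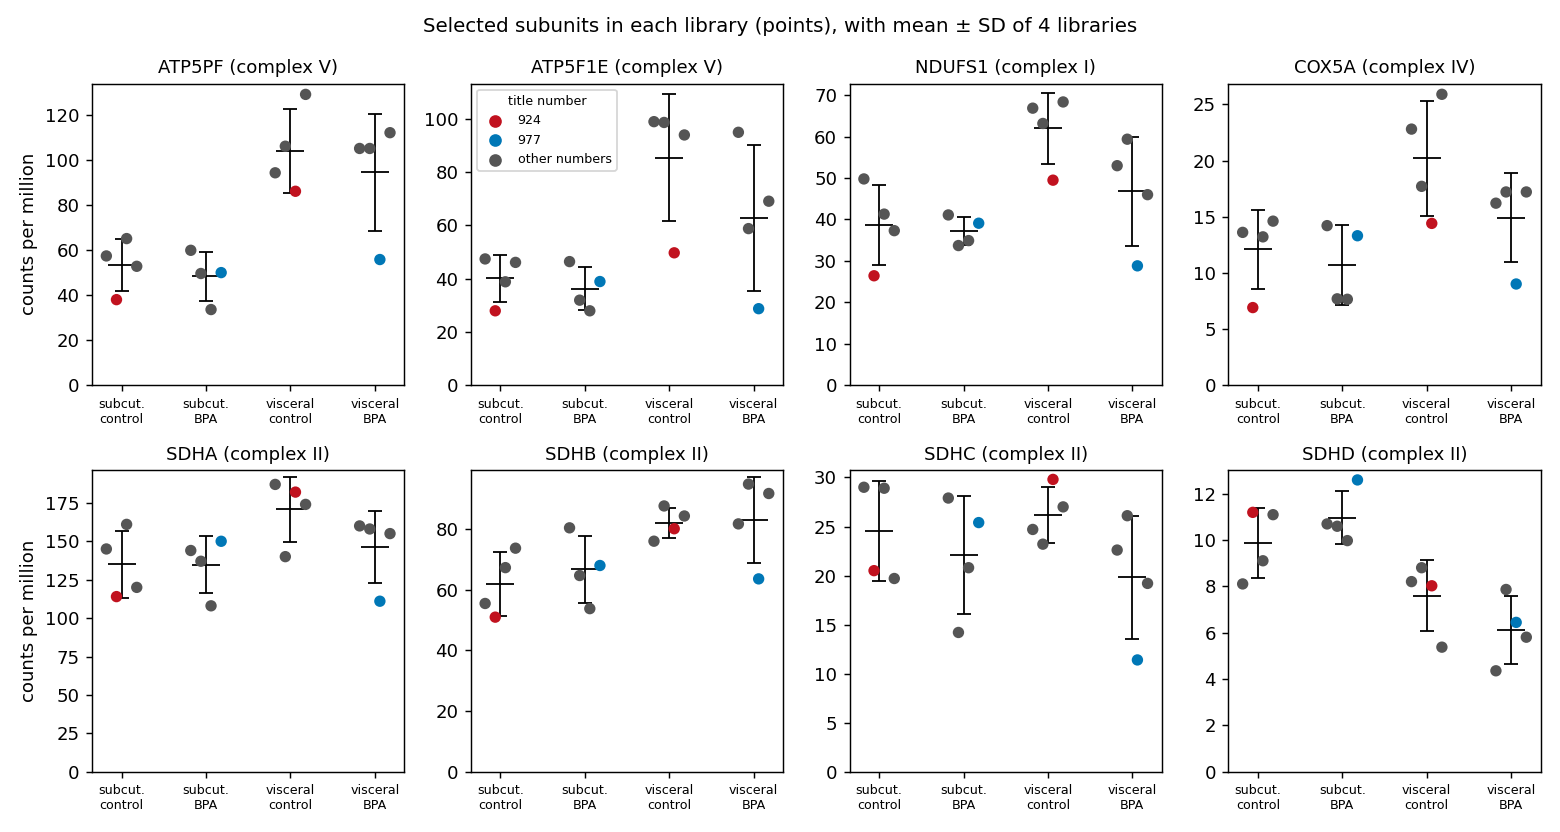
CPM of 8 subunits in each library (points), with mean ± SD of 4 libraries per group, axes starting at 0. ATP5PF and ATP5F1E separate the control depots, the anchor SDHD is lower in visceral than in subcutaneous BPA libraries, and visceral BPA library 977 (blue) lies below its group for 7 of the 8 genes.

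The same comparison among BPA ewes asks whether the depot difference is present after exposure. ATP5PF was again the called member. Of 58 members 40 were higher in visceral fat (52% of all genes) and 18 lower, with a median log2 fold change of 0.15, against 0.02 over all genes. The single call stands against 9.07% of all 13782 genes called, 5.13% called higher. The direction of the members turned on the 10 libraries whose number occurs in both depots, of which 4 are BPA (918 and 977): 19 were higher and 39 lower with the replicate block (median -0.15), and 22 and 36 without it (-0.132).

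ATP5PF had 105, 105, 55.7 and 112 CPM in visceral BPA libraries 910, 918, 977 and 984 and 59.8, 49.5, 33.5 and 49.9 in subcutaneous ones. Library 977 alone reached into the subcutaneous range. The gene was 1.95-fold higher (log2 0.97 ± 0.24 SE, adjusted p = 0.035, edgeR). The call was lost without visceral BPA 910, 918 or 984 and without subcutaneous BPA 922, 941 or 977, at adjusted p-values of 0.0752 to 0.10 (edgeR). In those fits 0 members were called, and 2.59% to 5.93% of all genes were. The ATP5PF call was also lost with every library thinned to the lowest total (log2 0.915, adjusted p = 0.068, edgeR). On the 10 libraries with a number in both depots it was lost with the replicate block (log2 0.489, adjusted p = 0.173) and without it (0.549, adjusted p = 0.397, edgeR). GABPA on the other strand had a log2 fold change of -0.09 ± 0.19 SE.

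Without visceral BPA 977, 5 members were called higher (ATP5F1E, ATP5MG, ATP5PD, ATP5PF and NDUFC2), 8.62% of members against 16.1% of all genes, and the median was 0.26. The median was also moved by leaving out visceral 910 (0.07) or 918 (0.10) and subcutaneous 918 (0.28) or 941 (0.06).

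In complex I, NDUFA5 had 22.2, 13.6, 14.7 and 16 CPM in visceral and 6.4, 9.94, 4.4 and 11.9 in subcutaneous BPA libraries. The groups did not overlap, and the gene was 2.02-fold higher (adjusted p = 0.0666, edgeR). NDUFA7, an accessory subunit, was 1.94-fold higher, also without overlap (adjusted p = 0.0858, edgeR). NDUFS1, called in controls, had a log2 fold change of 0.33 here (adjusted p = 0.357, edgeR), and ATP5F1E had 0.79 (adjusted p = 0.136).

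SDHD pointed the other way. It had 4.36, 7.87, 6.45 and 5.81 CPM in visceral and 10.7, 10.6, 9.98 and 12.6 in subcutaneous BPA libraries. All visceral values lay below all subcutaneous ones (log2 -0.85 ± 0.26 SE, adjusted p = 0.0663, edgeR). SDHD was called lower by DESeq2 (adjusted p = 0.0264), with a filter of 50 counts (0.0496), in the fit of 16 libraries (0.0204) and with the voom block (0.02), and not in the other settings, where the adjusted p ran up to 0.288. Its fellow anchor SDHC had -0.16, while SDHB and SDHA were not called. Over all members 3 were without overlap and higher (NDUFA5, NDUFA7, NDUFS6; 9.58% of all genes) and SDHD was without overlap and lower (9.03%).

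The depot comparisons of control and BPA ewes share no library. In both, 40 members (69.0%) were higher and 5 (8.62%) lower in visceral fat. Of all genes tested in both, 38.6% were higher in both and 36.7% lower in both. Fat cell markers did not follow in BPA ewes, where 6 of the 10 were higher, 0 were called and the median log2 fold change was 0.03.

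**Figure D4:**
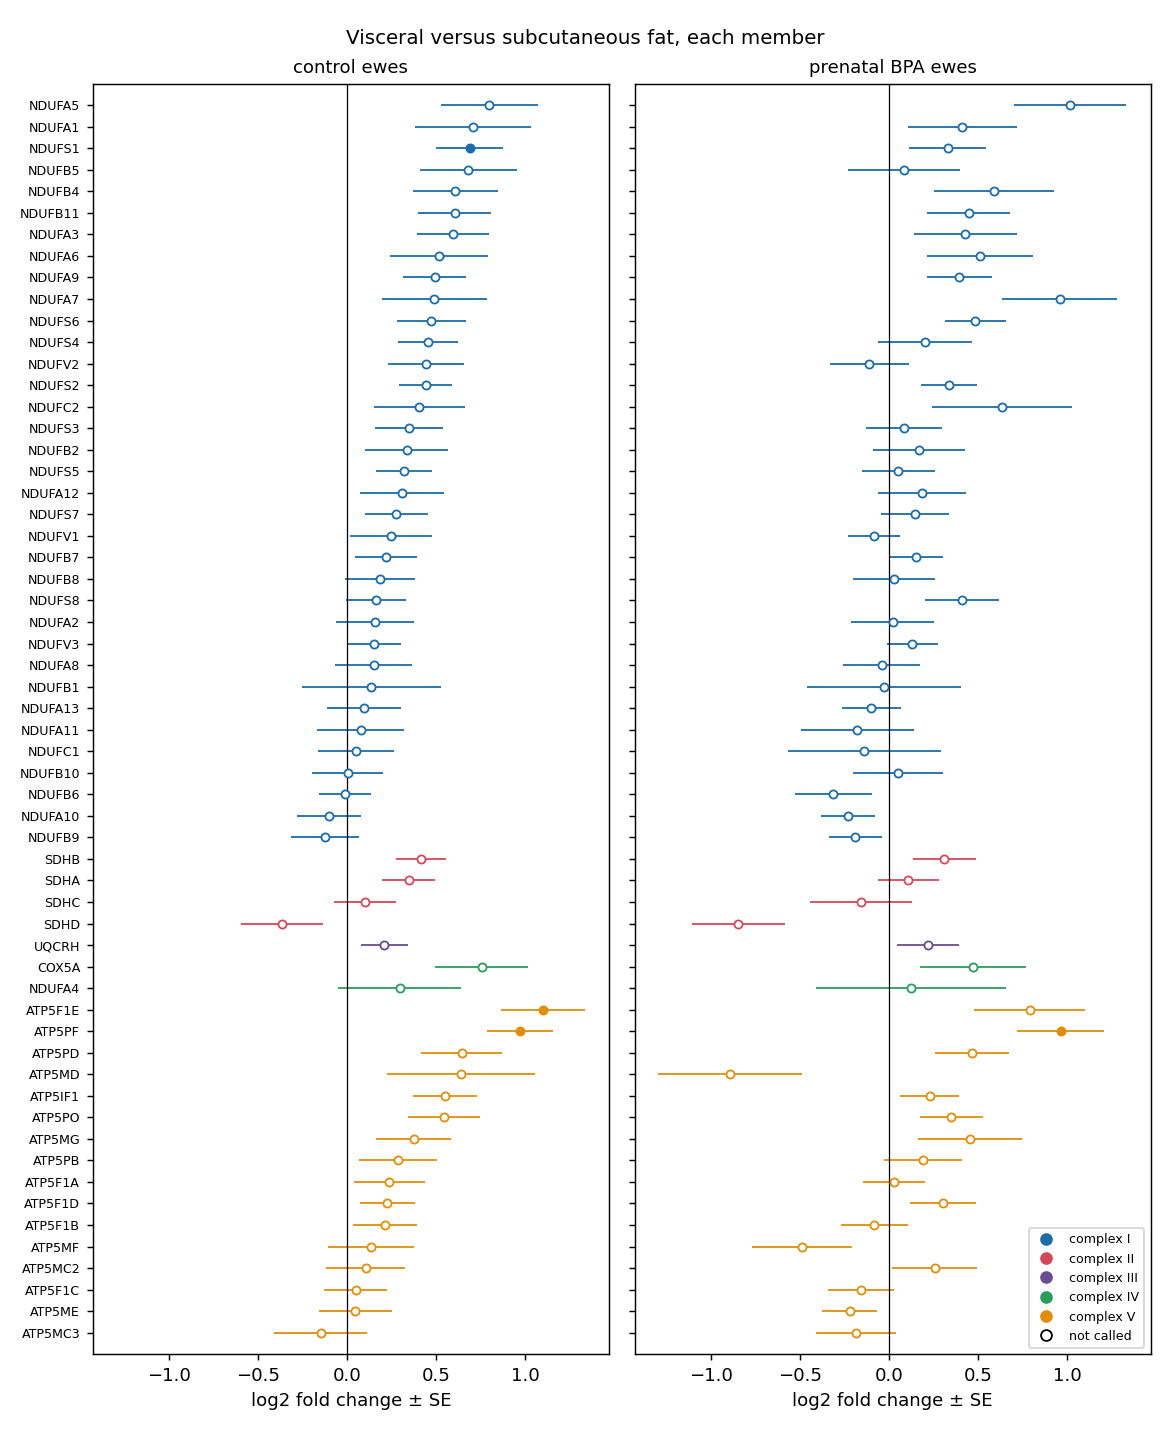
Log2 fold change of visceral over subcutaneous fat (points) with its SE (bars) for each member in control ewes (left) and BPA ewes (right), ordered by complex and by the control value. Filled points passed the test, which are ATP5F1E, ATP5PF and NDUFS1 in controls and ATP5PF in BPA ewes.

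The comparison of BPA with control ewes in visceral fat asks what prenatal exposure left in the adult depot. No member was called, and of 14774 genes tested 0 (0%) were. Of the 58 members 47 had a fitted change below 0 and 11 above (50.3% of all genes), with a median log2 fold change of -0.17, against 0.00 over all genes. At an unadjusted p under 0.05, 2 members were lower (2.36% of all genes) and 0 higher, with 7.47% of all genes past that level in either direction (1103 genes). DESeq2 called 0 members and 5 genes. Library 977 weighed on the direction: without it 36 members were lower and 22 higher, and the median was -0.04. Without visceral control 908 the median was -0.09, and without visceral control 924 it was -0.27. Fitted changes of the markers of some cell types also shared a direction, though none was called. All 6 smooth muscle markers were higher (median log2 1.40, 3 at an unadjusted p under 0.05, 0 called), with summed levels of 561 to 3500 CPM in BPA and 237 to 1010 in control libraries. All 5 endothelial markers were lower (median -0.21, 0 called), with sums of 2170 to 2440 and 2590 to 2850 CPM. By library, the smooth muscle sum was highest in visceral BPA 918 (3500 CPM), and library 977 had 706. Of 10 fat cell markers 7 were lower and 3 higher (median -0.05, 0 called). Of 6 fibroblast markers 4 were lower and 2 higher (median -0.28, 3 lower at an unadjusted p under 0.05, 0 called). The part of these cell types in the direction of the members was not tested.

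By complex, 28 of 35 members of complex I, 3 of 4 of complex II, both of complex IV and 14 of 16 of complex V were lower. The smallest p-values belonged to ATP5MD and ATP5MF, small subunits of the membrane part of the ATP synthase. ATP5MD had 4.58, 2.17, 2.7 and 2.71 CPM in visceral BPA and 7.05, 5.5, 5.27 and 5.62 in visceral control libraries. It was the only member whose groups did not overlap in this comparison (1.96% of all genes were lower without overlap), and its log2 fold change was -0.94 ± 0.33 SE (adjusted p = 0.658, edgeR). ATP5MD was among the least counted members, with 571 counts over all libraries.

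ATP5MF had 35.2, 30.3, 14.6 and 22.8 CPM in visceral BPA and 53.5, 48.8, 24.4 and 41.9 in visceral control libraries, which overlap (log2 -0.71 ± 0.30 SE). In complex I the lowest p-values were those of NDUFV2, a flavoprotein partner at the NADH site (-0.52 ± 0.24 SE), and NDUFA3 (-0.43 ± 0.20 SE). COX5A had -0.44 and SDHC -0.40. UQCRH had the highest value of all members, 0.29 ± 0.17 SE, with 101 ± 20.1 CPM in BPA and 82.4 ± 9.47 in control libraries (SD, n = 4). All adjusted p-values of members were 0.658 or higher (edgeR).

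In subcutaneous fat the BPA comparison showed no shared direction. Of 58 members 24 were higher (49.2% of all genes) and 34 lower, with a median log2 fold change of -0.03, against -0.01 over all genes. None was called, where 0.709% of 13535 genes were (96 genes), and DESeq2 called 0 members and 464 genes (3.43%). At an unadjusted p under 0.05, 1 member was lower, against 7.02% of all genes. The median ran from -0.17 without subcutaneous control 924 to 0.08 without subcutaneous control 928, so its sign rested on single libraries. Without subcutaneous controls 902 and 924 together it was -0.178, with 46 of 58 members lower and 0 called. Fitted changes of the markers of several cell types shared a direction, though few markers were called. All 6 macrophage markers (median log2 -0.85, 1 called) and all 6 fibroblast markers (-0.70, 0 called) were lower. So were all 5 endothelial markers (-0.15, 0 called) and all 3 tested lymphocyte markers (-1.04, 0 called). All 10 fat cell markers (0.19, 0 called) and all 6 smooth muscle markers (0.51, 1 called) were higher. The part of these cell types in the values of the members was not tested.

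The member of lowest p was NDUFB10, a membrane arm subunit of complex I, with 40.4, 34.1, 28.2 and 34.8 CPM in BPA and 52.7, 33.1, 47.4 and 45.9 in control libraries. The groups overlap through control 924 (log2 -0.37 ± 0.17 SE, adjusted p = 0.35, edgeR). NDUFC1 of the same arm had -0.37 (adjusted p = 0.463). UQCRH again had a positive value, 0.27 ± 0.13 SE, with 86.5 ± 8.18 against 71.8 ± 7.07 CPM (SD, n = 4; adjusted p = 0.369, edgeR). In complex V, ATP5ME, a membrane part subunit, had 0.27 and ATP5F1D, the delta subunit of the central stalk, had -0.23 (adjusted p = 0.526 and 0.531, edgeR).

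The BPA comparisons of the depots share no library, but 5 title numbers occur in both depots. In both, 30 members (51.7%) had fitted changes below 0 and 7 (12.1%) above, against 32.0% and 31.0% of all genes tested in both. The difference between the BPA effects of the depots was tested directly, and 0 of 58 members were called, as were 0 (0%) of 14793 genes (edgeR, all 16 libraries). At an unadjusted p under 0.05, 1 member, with a negative difference, and 917 genes (6.2%) passed, 1.8% of genes with a negative difference, and DESeq2 called 0 members and 11 genes. The member was ATP5MD, with a difference of -1.53 ± 0.60 on the log2 scale (adjusted p = 0.725, edgeR). It had 5.62 ± 2.39 CPM in subcutaneous BPA and 3.75 ± 2.36 in subcutaneous control libraries (SD, n = 4). NDUFV2 had -0.54 (adjusted p = 0.892). The median over members was -0.16, against 0.02 over all genes, with 12 members above 0 (51.9% of all genes). It ran from -0.27 to -0.01 with each library left out in turn, with the value nearest 0 seen without subcutaneous control 924. Without subcutaneous controls 902 and 924 together it was 0.005. On the 10 libraries whose number occurs in both depots it was -0.451 with the replicate block, with 54 of 58 members below 0 and 14 at an unadjusted p under 0.05, and -0.425 without the block, with 53 and 2. No member was called in these fits (edgeR).

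Standard errors bound what these 4 libraries a group could show. Their median over members was 0.218 on the log2 scale for the visceral and 0.196 for the subcutaneous BPA comparison. The coefficient of variation of a member's CPM had a median of 22.8% in subcutaneous controls, 16.3% in subcutaneous BPA, 18.5% in visceral controls and 23.2% in visceral BPA libraries.

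**Figure D5:**
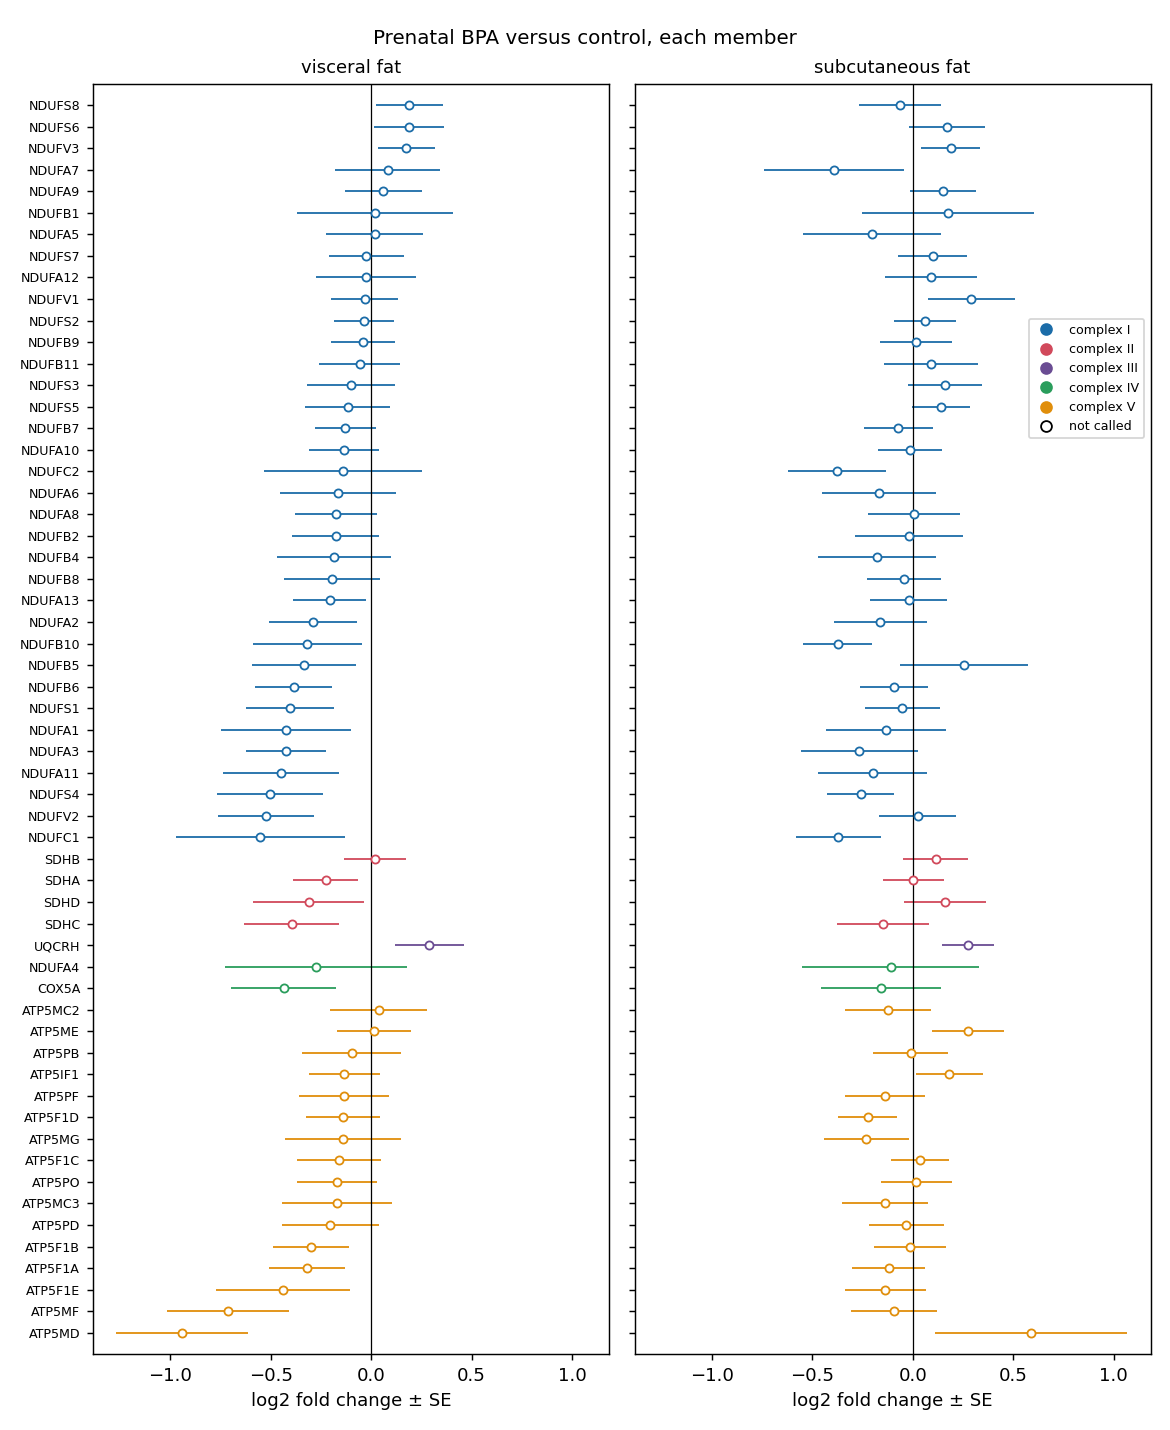
Log2 fold change of BPA over control (points) with its SE (bars) for each member in visceral fat (left) and subcutaneous fat (right), ordered by complex and by the visceral value. All points are open, since no member passed the test. In visceral fat 47 of 58 lie left of 0, and in subcutaneous fat 34 of 58 do.

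Other genes around the chain were taken from lists of the pathway. As background for their counts, 7.17% of all genes were called higher in visceral controls and 49.4% lay above 0. A list of uncoupling carriers and of enzymes that bring electrons to coenzyme Q beside complexes I and II had 5 of 8 tested members called higher and 0 lower. ETFDH, which brings in electrons from fatty acid oxidation, had 69.6, 82.4, 78 and 113 CPM in visceral and 42.7, 44.2, 38.5 and 44.5 in subcutaneous controls (log2 1.02 ± 0.16 SE, adjusted p = 0.0034, edgeR). The groups lie well apart, and its partners ETFA and ETFB were also called (0.93 and 0.67). GPD2, the glycerol phosphate dehydrogenase of the inner membrane, was higher by 0.95 and UCP2, a carrier related to UCP1, by 0.73 on the log2 scale.

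All 13 citric acid cycle genes were higher in visceral controls, and 2 were called, SUCLG2 (log2 0.84 ± 0.13 SE) and DLD (0.88 ± 0.21 SE). Citrate synthase (CS), the entry enzyme, had 0.11 ± 0.14 SE. Assembly factors of complex I, which build it and leave, were split, with 8 of 16 higher and 1 called, NDUFAF8 (1.03, adjusted p = 0.0318, edgeR). Of the 73 tested mitochondrial ribosomal proteins 56 were higher and 7 called.

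In BPA ewes UCP2 (1.10) and GPD2 (0.89) were called higher in visceral fat, with 0 citric acid cycle genes called. Of all genes, 5.13% were called higher there. The difference between ewes was not called for any of these genes (edgeR, all 16 libraries).

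Of 16 tested regulators of mitochondrial genes, 9 were higher and 7 lower in visceral controls, with 1 called in each direction. GABPB1 was higher in visceral fat (0.64, adjusted p = 0.0274, edgeR) and POLG2, a subunit of the mitochondrial DNA polymerase, was lower (-0.77, adjusted p = 0.0185). PPARGC1A, ESRRA and NRF1 were not called in any comparison. With BPA, PPARGC1B, a coactivator of respiratory genes, had 71, 80, 53.7 and 49 CPM in subcutaneous BPA and 38.4, 30.7, 37.5 and 21.3 in subcutaneous control libraries. The groups do not overlap, and the log2 fold change was 0.99 ± 0.22 SE (adjusted p = 0.072, edgeR). NRF1 did not overlap either, with 60.9 to 70.1 CPM in subcutaneous BPA and 47.3 to 59.3 in subcutaneous control libraries. Of 15 regulators tested in this comparison, 7 were higher and 8 lower. Of these, 2 were higher without overlap, where 578 of all 13535 genes were. The respiratory chain members of the same libraries showed no shared direction, as given above. No gene of these lists was called in either BPA comparison.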

How the data were processed

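Whole fat RNA of 16 libraries (4 groups of 4) was sequenced. The submitters' processing notes name FastQC 0.11.5, MultiQC 0.9, STAR 2.6.0c (aligner) and featureCounts from Subread 1.6.1 (counter). Per the labels' protocols, libraries were made with a SMARTer low-input kit after ribosome depletion. No source used here names the build, annotation or strandedness, so no positions are printed. The authors deposited a count for every gene in each library. Its name calls the values normalized, but 0 values are not whole and totals differ from 3046126 to 14305764, so they were used as raw counts.

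Genes passed filterByExpr (10 counts at median depth, 15 in total), were scaled by TMM and tested with edgeR 4.0.16 (R 4.3.3; glmQLFit and glmQLFTest, two-sided) on the 8 libraries compared, or on 16 for the difference between depots. P-values were adjusted by Benjamini-Hochberg over all genes tested. The SE of an edgeR log2 fold change was derived from the test, as its absolute value divided by the square root of the F statistic. CPM are counts over TMM-scaled totals, and RPKM divide these by the deposited gene length. On simulated counts with 200 genes changed 3-fold, the edgeR fit recovered 99.5% with 11 false calls for subcutaneous BPA against control (13645 genes). For the control depots it recovered 100% with 16 false calls (14627 genes). Recovery of changes below 3-fold, such as those of the members, was not tested. Alternatives were DESeq2 1.42.0 as test or size factors, other filters, thinning, 1 fit of 16 libraries, replicate blocks (edgeR, or limma 3.58.1 voom), and libraries left out.

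The title numbers were checked as animals by the correlation of deviations from group means. Controls 902, 924 and 928 gave 0.271, 0.417 and 0.34, each best with its own number, and were taken as pairs. Only the replicate block fits use this pairing. The main depot tests treat their 8 libraries as unpaired, so their p-values leave the pairing out. BPA 918 and 977 gave 0.172 and -0.005, too few and too unlike to be taken as pairs by this check. The edgeR block fit nevertheless blocks all 5 numbers, so its BPA and difference values rest on 2 pairs that the check did not bear out. The labels do not say that each library is a separate animal, so p-values measure the spread between these samples. Complex and module of each member were assigned by hand. Members, lists and tests were chosen with earlier results of these data known. Genes named are the called members, those of smallest p per complex and fixed core subunits, of which the text gives part. ATP5MG, ATP5PO, NDUFA3, NDUFS6 and NDUFC2 were named after their values were seen.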

Additional observations from a re-analysis of the deposited data

Results flagged for a closer look

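A search covered 22 members named in the text, partly for their small p-values, and 4 levels (all members and complexes I, II and V). It sought a library with a wide gap to the nearest other library of its group. The gap as a share of the group's range had to exceed Dixon's 95% critical value for 4 samples. Of 104 groups of values 6 passed, and chance alone gives about 1 in 20. Visceral BPA library 977 was set apart 5 times, always as the lowest. Genes of 1 library share its RNA, and the complex V level is built from members, so these flags are not separate observations. ATP5PD had 55.7 CPM there, against 99.3 to 104 in the other visceral BPA libraries. ATP5PF had 55.7 CPM, against 105 to 112. COX5A had 9.0 CPM, against 16.2 to 17.2. SDHA had 111 CPM, against 155 to 160. The level of complex V was -0.488, against 0.141 to 0.219. Visceral control library 924 was the lowest for ATP5F1E, with 49.7 CPM against 94 to 99.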

How the results depend on the processing

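Calls depended on the test. For visceral against subcutaneous fat in controls (3 members called), DESeq2 called 10 (17.2%, against 19.2% of all genes). The replicate block called 8 in edgeR (13.8% against 14.4%) and 10 in voom (17.2% against 15.9%). The 10 libraries of the edgeR block gave 0 when unblocked (6.46% of all genes), a fit chosen after seeing the data. Thinning gave 2 (3.45% against 8.19%), and leaving out subcutaneous controls 902 and 924 gave 1 (1.72% against 7.37%). Leaving out 1 library gave 2 to 8, with 7.32% to 12.3% of all genes called. For BPA ewes (1 called), DESeq2 called 4 (6.9%, against 15.9% of all genes) and a filter of 50 counts in 4 libraries 2 (3.64% against 9.85%). Thinning called 0 (5.99% of all genes), the fit of 16 libraries 3 (5.17% against 16.3%) and the voom block 4 (6.9% against 15.5%). The edgeR block called 1 (ATP5MF, lower, 1.72% against 6.83%) and its 10 libraries unblocked 0 (1.51% of all genes). The counts of DESeq2, the filter, the 16 libraries and voom include SDHD, lower. Leaving out 1 library gave 0 to 5, with 2.59% to 16.1% of all genes called. The edgeR block, on 10 libraries of which 4 are BPA, turned the BPA ewes' median to -0.15 and moved the median difference between depots to -0.451. The same libraries unblocked gave -0.132 and -0.425. For that difference it was 0.00454 without subcutaneous controls 902 and 924. The subcutaneous BPA median turned to 0.00142 under the voom block, and ran from -0.166 to 0.0849 with 1 library left out. No setting called a member in either BPA comparison or in the difference between depots.

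Among single genes, SDHC in controls turned to -0.00743 and SDHD to 0.121 with thinning, and SDHC to -0.0419 without both libraries of number 924 (chosen after seeing the data). In BPA ewes ATP5F1E turned to -0.0391 under the edgeR block and SDHC ran from -0.318 to 0.0288 (without visceral BPA 977) with 1 library left out. Depth and depot cannot be told apart in the unthinned counts. The cause of these shifts was not tested.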
